A study of Mus musculus with 5 samples.

Results

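The comparison described here set mouse cells depleted of the long non-coding RNA Linc1405 against control cells at day 4 of differentiation from embryonic stem cells (ESCs), the stage that the labels call mesoderm. It rested on 2 of the 5 single-colour microarrays of the study, 1 for each side. All 5 arrays were quantile normalised together, a floor of 100 was set on the intensities, and the values were taken to log2. A gene was kept where the brighter of the day 4 arrays was at or above that array's own median, a log2 intensity of 9.16. This kept 10699 of 17742 named genes, and every difference below is knockdown minus control on the log2 scale, so that 1 is a doubling of the normalised intensity.

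All cells came from the mouse ESC line 46C. ESCs (day 0) were grown in 15% fetal bovine serum over a feeder layer, with LIF (1000 U/ml), and the feeders were removed at harvest. Control and knockdown cells at day 4 were grown alike, in N2 and B27 medium free of serum that held Bmp4 at 0.2 ng/ml, Activin A at 5 ng/ml and VEGF at 5 ng/ml. Control and knockdown cells at day 10, called cardiomyocytes in the labels, were grown in StemPro-34 medium supplied with 10 ng/ml bFGF, 5 ng/ml VEGF and 25 ng/ml FGF10. The labels give the modified line the genotype of a Linc1405 knockdown and name its day 4 sample MES_1405KIpA. What that name stands for, how the knockdown was made and whether the line is 1 clone are not given in the sources used here. With 1 array a group there was no spread between cultures and no test, so each value describes these arrays only.

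During gastrulation, cells of the epiblast pass through the primitive streak, where Nodal and Wnt signals turn on transcription factors such as Brachyury (T) and Eomes, and leave it as mesoderm or definitive endoderm. Eomes is a T-box factor that acts early and anteriorly in the streak and lies upstream of Mesp1, a factor of the first heart progenitors. Hox genes are activated in order along their clusters as mesoderm is laid down, the genes at the start of a cluster first and in anterior tissue, and those towards its end later and more posteriorly. The title of the series ties Linc1405 to Eomes in cardiac mesoderm, and the day 4 pair asks what differed in mesoderm when Linc1405 was depleted.

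The deposited intensities had medians of 344 to 745 over the 5 arrays, with 665 for the control and 745 for the knockdown at day 4, before normalisation. No probe carried the name Linc1405 and no gene table entry did (0), so the knockdown itself was not checked here. The stage label was checked against 10 mesoderm markers, all of which were measured and past the filter in the day 4 pair. Their summed normalised intensity was 11631 in ESCs, 178086 in the control and 155894 in the knockdown array at day 4, and 46181 and 41838 in those of day 10. Of the 10, 7 were lower in the day 4 knockdown array, 1 of them at least 2-fold, with a median difference of -0.61, so the sum moved less than most members did. Markers of stem cells summed to 359536 in ESCs and to 8985 and 7825 at day 4, over the 5 of 6 measured. Heart muscle markers, also 5 of 6, summed to 4959 and 5185 at day 4 against 409350 in control cells at day 10. Fibroblast and feeder markers (5 of 6 measured) summed to 1228 (control) and 1053 (knockdown) at day 4, and Col3a1 and Lum were at the floor in both.

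Of the 10699 genes, 86 were at least 2-fold higher in the knockdown array, which is 0.804% of them, and 157 were at least 2-fold lower, which is 1.47%. The counts of every list below are to be read against these shares, and in a short list a count of 0 lies near them. The lists were chosen with earlier results of these data known, so their counts and medians only describe these arrays. The median difference over the kept genes was 0.01, 91.8% of them (9822 genes) lay within 0.5 of 0, and the 5th and 95th percentiles were -0.46 and 0.42. On the values as deposited, without normalisation, the median of all genes was 0.20, and the split became 123 higher and 113 lower, or 52.1% higher in place of 35.4%. After that shift was subtracted it was 81 higher and 160 lower. A gene that only its brighter array carried past the filter had to differ in that direction: 42 of the 86 higher genes were kept only through the knockdown array, and 91 of the 157 lower genes only through the control array. The named gene just inside the 2-fold limit was Tmc5 at -1.0003, and the one just outside was Prex1 at -0.99. Where 1034 genes had a second probe also past the filter, the SD between probes of a gene was 0.21, which covers probe error and not the spread between cultures. The differences on the brighter and the second probe correlated with an r of 0.41. The median control level at day 4 was 9.22 for the higher and 10.4 for the lower genes, against 12.1 for all kept genes. The SD at such dimmer levels was not measured separately.

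**Figure D1:**
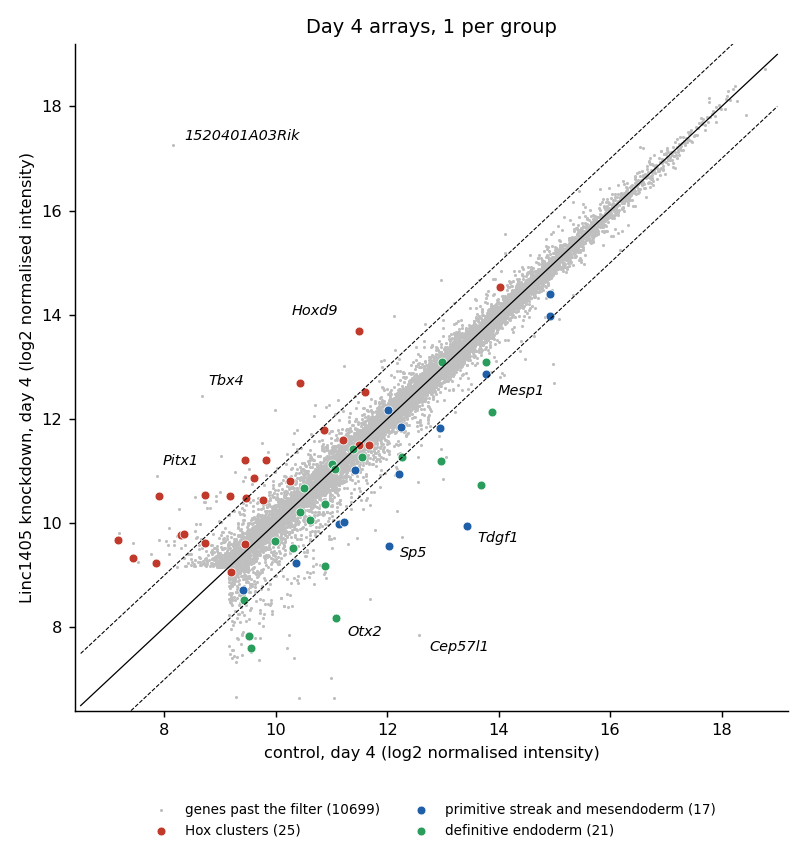
Log2 normalised intensity of each of the 10699 kept genes in the control array (x axis) and the knockdown array (y axis) at day 4. Grey points are all kept genes, red points Hox cluster genes, blue points primitive streak and mesendoderm genes and green points definitive endoderm genes. The solid line marks equal levels and the dashed lines 2-fold differences, and genes in both of the last lists, such as Foxa2, are drawn green. The plot has 14 Hox genes above the upper dashed line, and 8 streak and 7 endoderm genes (Foxa2 counted in each) below the lower one.

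Genes of the primitive streak were the group with the lowest median among the lists. Because the lists were chosen with earlier results of these data known, this rank and the counts are description only. Of 20 listed genes 19 were measured and 17 were past the filter. Of these 17, 8 were at least 2-fold lower in the knockdown array and 0 at least 2-fold higher, where the background shares are 1.47% and 0.804%, and 16 of the 17 lay below 0. Of the 8, 7 were past the filter in each array and 1 only in the control array. The median over the 19 was -0.92, beside a median of 0.00 over all genes, and on the values as deposited it was -0.72. In bulk RNA, fewer cells of a type and less RNA in each cell cannot be told apart.

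Tdgf1, which encodes the Nodal coreceptor Cripto, had the lowest value of the list. In the order ESCs, day 4 control, day 4 knockdown, day 10 control and day 10 knockdown, an order kept for all 5 levels given below, its log2 intensities were 17.29, 13.43, 9.94, 10.38 and 8.97. The gene was highest in ESCs, and at day 4 the difference was -3.48. Sp5, a zinc finger factor that responds to Wnt signals, had levels of 8.94, 12.03, 9.56, 7.99 and 7.04 and a difference of -2.47. The day 4 knockdown array lay between ESCs and the day 4 control array. Foxa2, a forkhead factor of the anterior streak, node and endoderm, had 7.26, 9.51, 7.84, 8.89 and 7.04 and differed by -1.68. Mixl1, a homeobox factor of streak cells, had 8.21, 12.21, 10.95, 7.498 and 7.36 with a difference of -1.26. Wnt3, the ligand needed to form the streak, differed by -1.21, from 11.23 to 10.02. Fst (follistatin, which binds Activin), Mesp2 (a basic helix-loop-helix factor) and Lhx1 (a LIM homeobox factor) gave -1.16, -1.12 and -1.11.

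T and Mesp1 lay just short of the 2-fold limit. T had levels of 10.62, 14.92, 13.98, 9.28 and 9.67, a difference of -0.94, and both day 4 arrays stood above the other 3. Mesp1 was at the floor in ESCs and at day 10, and its day 4 levels were 13.78 (control) and 12.86 (knockdown), which gave -0.92. Evx1, a homeobox factor of the posterior streak, went from 14.91 to 14.40, and Fgf8 from 12.24 to 11.85. Eomes was the only one of the 17 above 0. Its levels were 12.15, 12.01, 12.17, 10.05 and 10.31. Eomes was read from 1 probe, on which the day 4 control array did not stand above ESCs (-0.14). The day 4 difference of Eomes, 0.16, was smaller than the SD between probes, which does not cover the spread between cultures.

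Upstream sequence is shown for streak genes that were lower together, for Fgf5 of the epiblast list, and for Hox genes that were higher together, 250 bases before the start site of each, from RefSeq (GRCm38.p6). Capitals mark a match, on either strand, to 1 of the short motifs searched, written by their letters: CTTTGAT and CTTTGAA for Tcf/Lef factors, which carry Wnt signals, GGTGTGA as the core of the T-box motif AGGTGTGA, and TTTATNG for Cdx factors. They are T at chr17:8434173-8434422 on the plus strand (CTTTGAA, 235 bases before the start, and TTTATNG, 178 before), Sp5 at chr2:70474673-70474922 on the plus strand (CTTTGAT, 104 before), Mesp1 at chr7:79793591-79793840 on the minus strand (CTTTGAA, 73 before, and CTTTGAT, 31 before) and Fgf5, an epiblast growth factor described further on, at chr5:98253934-98254183 on the plus strand (the T-box core, 82 before).
T: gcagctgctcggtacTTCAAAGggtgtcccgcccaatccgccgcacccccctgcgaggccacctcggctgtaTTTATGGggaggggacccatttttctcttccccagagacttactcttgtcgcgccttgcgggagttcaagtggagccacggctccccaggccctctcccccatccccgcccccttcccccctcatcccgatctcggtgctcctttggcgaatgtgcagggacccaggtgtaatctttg
Sp5: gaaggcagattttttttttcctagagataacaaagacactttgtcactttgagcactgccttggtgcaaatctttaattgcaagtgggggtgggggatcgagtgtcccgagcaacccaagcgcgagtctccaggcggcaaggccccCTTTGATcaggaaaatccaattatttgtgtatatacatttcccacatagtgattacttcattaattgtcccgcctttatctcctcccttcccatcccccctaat
Mesp1: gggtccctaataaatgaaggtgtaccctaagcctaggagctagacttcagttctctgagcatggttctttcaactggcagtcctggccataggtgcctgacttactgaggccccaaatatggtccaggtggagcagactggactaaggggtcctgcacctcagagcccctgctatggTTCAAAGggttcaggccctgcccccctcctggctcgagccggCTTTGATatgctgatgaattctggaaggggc
Fgf5: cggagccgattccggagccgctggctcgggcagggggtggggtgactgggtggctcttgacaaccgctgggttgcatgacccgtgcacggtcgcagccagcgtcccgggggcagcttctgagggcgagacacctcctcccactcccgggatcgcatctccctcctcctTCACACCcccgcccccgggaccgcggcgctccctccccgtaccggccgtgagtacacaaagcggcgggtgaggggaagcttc

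A match is a description of these letters and not a bound site. CTTTGAT was found in 3.72% of the 300-base promoter windows (250 bases before to 50 after the start) of 27025 genes, CTTTGAA in 5.27%, GGTGTGA in 3.96%, AGGTGTGA in 1.27%, TTTATNG in 11.3%, TATAAA in 14.2% and AATNCACA, a Foxh1 motif, in 3.63%. Of 15 streak genes with a window, 2 held CTTTGAT (Mesp1 and Sp5), 2 held CTTTGAA (Mesp1 and T), 1 held AGGTGTGA (Mesp1, 5 bases after its start and outside the stretch printed) and 1 held AATNCACA (Mesp2). Among the 8629 kept genes with a window the shares were lower, 3.27% for GGTGTGA, 6.95% for TTTATNG and 7.32% for TATAAA. Among the 116 genes with a window that were at least 2-fold lower, 9 held GGTGTGA and 13 held TTTATNG. Among the 56 that were at least 2-fold higher, 5 and 6 genes did.

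The series title pairs the RNA with Eomes, so genes of histone H3K4 methylation and the genes around Eomes are given here. Wdr5, a subunit of histone H3K4 methyltransferases, had 13.77 in control and 13.75 in knockdown cells, and Kat2a, a histone acetyltransferase also called Gcn5, had 13.60 and 13.53. Of 12 kept genes in the list of the Eomes complex and H3K4 methylation, 0 were 2-fold apart, and the median over the 15 measured was 0.09. The 8 nearest genes measured on each side of Eomes, in the gene order of GRCm38.p6, gave 12 kept genes with differences from -0.45 (Itga9, an integrin subunit) to 0.50 (Rbms3, an RNA-binding protein), and 0 of them were 2-fold apart. A count of 0 in 12 genes is near the shares of all kept genes, 0.804% higher and 1.47% lower. Of the other T-box genes, Tbx4 was higher and is described with the limb genes. Tbx6, a factor of paraxial mesoderm, differed by -0.71, Tbx3 by -0.52, Tbx5 by -0.32, Tbx20 by 0.13 and Tbx2 by 0.35. The remaining kept members, Tbr1, Tbx10 and Tbx19, lay at -0.17, -0.15 and -0.01, and Tbx1, Tbx15, Tbx18, Tbx21, Tbx22 and Mga did not pass the filter.

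**Figure D2:**
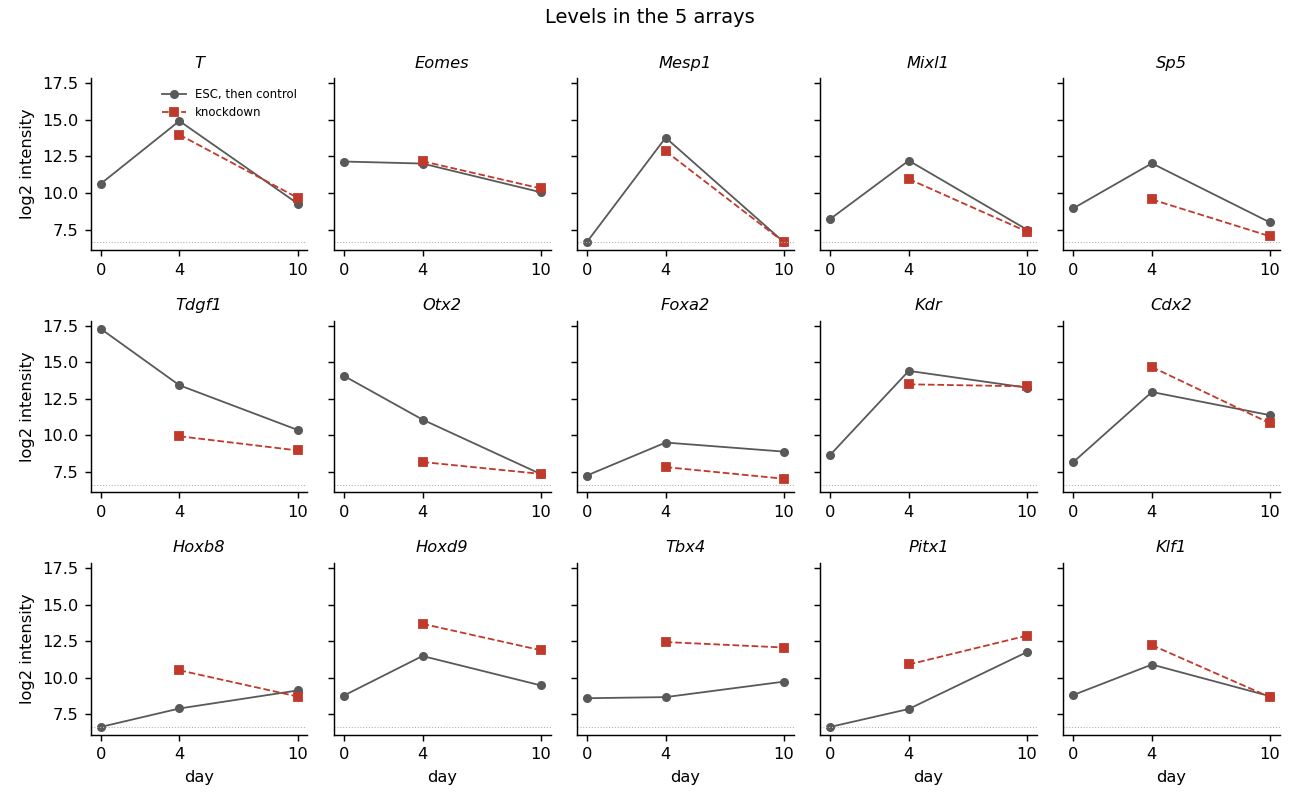
Log2 normalised intensity (y axis) of 15 genes in the 5 arrays by day of differentiation (x axis); grey circles joined by solid lines are ESCs and then control cells, red squares joined by dashed lines knockdown cells, and the dotted line is the floor. At day 4 the red square lies below the grey circle for T, Mesp1, Mixl1, Sp5, Tdgf1, Otx2, Foxa2 and Kdr and above it for Cdx2, Hoxb8, Hoxd9, Tbx4, Pitx1 and Klf1, and for Eomes the markers nearly coincide.

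Signalling genes are given by pathway. Of the Nodal and Activin list, 17 of 22 genes were measured and 14 kept. Only the coreceptor Tdgf1 and the inhibitor Fst were 2-fold lower, and 0 were 2-fold higher, beside 1.47% and 0.804% of all kept genes. The other coreceptor Cfc1 had 15.04 and 15.10, so its difference was 0.07. The receptors Acvr1b, Acvr2a and Acvr2b gave -0.08, -0.24 and 0.02, the effectors Smad2, Smad3 and Smad4 -0.11, 0.68 and -0.07, and the partner factor Foxh1 0.22. The processing enzymes Furin and Pcsk6 gave -0.15 and 0.15, and Gdf3 and Ltbp1 gave 0.05 and 0.03. Inhba, Inhbb and Acvr1c did not pass the filter.

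Wnt ligands, receptors and targets each held a few 2-fold differences. Among 17 kept ligands and modulators, 4 were at least 2-fold lower and 1 at least 2-fold higher, beside 1.47% and 0.804% of all kept genes, and 12 lay below 0. Of the 4, 1 was kept only through the control array. The median over the 30 measured was -0.17, and it lies above 0 on the values as deposited. The secreted inhibitor Dkk1 had levels of 6.64, 10.89, 9.18, 10.09 and 9.90 and a difference of -1.71, Wnt2b differed by -1.62 and the Frizzled-related protein Frzb by -1.15. Dkk3, a relative of Dkk1, was the 1 higher, at 1.21. Among 19 kept receptors and transducers only the receptor Fzd7 was 2-fold apart, with 14.09 in control and 12.84 in knockdown cells. This 1 lower gene stands beside 1.47% of all kept genes. Of 18 kept Wnt target genes, 2 were at least 2-fold higher (Cdx4 and Cdx2) and 2 lower (Sp5 and Dkk1), beside 0.804% and 1.47% of all kept genes. Cdx4 was kept only through the knockdown array. The target Axin2, often read as a gauge of the pathway, had 12.68 and 12.86.

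Among 13 kept FGF ligands and receptors, Fgf5 alone was 2-fold apart, beside 1.47% of all kept genes that were lower. It was kept only through the control array, so it had to be lower. This growth factor of the primed epiblast had levels of 8.23, 10.32, 7.42, 7.06 and 9.62, the control array standing highest and the knockdown array below ESCs at day 4, a difference of -2.91. The ligands Fgf3 and Fgf15 gave 0.07 and 0.31. Among 11 kept feedback genes of FGF and ERK signalling, 0 were 2-fold apart, which is near the shares of all kept genes. Of 21 kept BMP genes, 2 were at least 2-fold lower and 0 higher, beside 1.47% and 0.804% of all kept genes. They were the ligand Bmp5 (-1.17) and the secreted modulator Bmper (-1.08). The BMP target genes Id1 and Id3 gave -0.16 and -0.15. In the Notch list, 2 of 14 kept genes were at least 2-fold lower, beside 1.47% of all kept genes. They were the Delta ligands Dll1 and Dll3, at -1.84 and -1.201. Both were kept only through the control array, so they had to be lower. Dll1 had levels of 12.33, 10.86, 9.02, 9.34 and 9.51. Dlk1, a Delta-like protein from an imprinted domain, was higher, with 11.23 and 13.02 on its brighter probe (1.79) and 0.75 on its other probe.

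Definitive endoderm genes were the group with the next lowest median, -0.62 over 22 measured genes. Of 21 kept, 7 were at least 2-fold lower and 0 at least 2-fold higher, against background shares of 1.47% and 0.804%, and 17 lay below 0. Of the 7, 4 were past the filter in each array and 3 only in the control array. Trh, the precursor of thyrotropin-releasing hormone, had levels of 17.32, 13.69, 10.74, 8.96 and 9.16 and a difference of -2.94. Otx2, a homeobox factor of epiblast, anterior endoderm and forebrain, had 14.07, 11.08, 8.18, 7.36 and 7.37 and -2.90. For both genes ESCs were highest and the day 4 control array stood above the knockdown array. Foxa1 had 6.64, 9.56, 7.61, 8.67 and 6.64, at the floor in ESCs and in knockdown cells at day 10, and its day 4 difference was -1.95. Cldn6, a tight junction protein, and Spink1, a secreted protease inhibitor, gave -1.77 and -1.74. Sox17, a leading endoderm factor, differed by -0.99. The chemokine receptor Cxcr4 (0.13) and the homeobox factor Hhex (0.03), which mesoderm and endothelial cells also use, lay within the SD between probes. That SD does not cover the spread between cultures. Of the 6 endoderm marker genes, 3 were at least 2-fold lower (Foxa1, Foxa2 and Trh), none was at the floor, and their summed intensity was 24280 in control and 9577 in knockdown cells. Trh, which ESCs also expressed strongly, made up 77.9% of the drop in that sum. Without it the sum was 11109 in control and 7866 in knockdown cells, and the part of these cells in the other differences was not tested. Among 13 kept genes of visceral endoderm and liver, Ttr (transthyretin, -1.08) and Dkk1 were lower and 0 were 2-fold higher, beside 1.47% and 0.804% of all kept genes.

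Early heart mesoderm showed small differences, mostly below 0. Of 20 kept genes, Mesp2 alone was 2-fold apart, beside 1.47% of all kept genes that were lower. The median over the 25 measured was -0.31, or -0.10 on the values as deposited. Kdr, the VEGF receptor of mesoderm that gives heart and vessels, had 8.65, 14.41, 13.49, 13.26 and 13.35 and a difference of -0.92, and Etv2, a factor of blood and vessel progenitors, had 10.02, 14.83, 13.95, 10.08 and 8.16 and -0.88. Gata4, a zinc finger factor of heart and endoderm, went from 13.78 to 13.10, and Hand2 from 11.88 to 11.27. Isl1 and Hand1, factors of heart progenitors and of lateral and extraembryonic mesoderm, went the other way, at 0.53 and 0.53, as did the growth factor receptor Pdgfra at 0.28. Genes of the contractile apparatus showed 0 of 10 kept members 2-fold apart and a median of 0.13 over 16 measured. That count is near the shares of all kept genes, 0.804% higher and 1.47% lower.

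Of the endothelial genes 1 was 2-fold apart, and of the blood genes 3 were. Of 21 kept endothelial genes only Tie1, a vessel receptor, was 2-fold lower, at -1.15, beside 1.47% of all kept genes. The median of the list was -0.11 over 24 genes, which lies above 0 on the values as deposited. Flt1, another VEGF receptor, was at 0.80. In the blood and erythroid list, 3 of 15 kept genes reached 2-fold higher and 0 reached 2-fold lower, beside 0.804% and 1.47% of all kept genes: Klf1 (1.32), a factor that turns on globin genes, Alas2 (1.32), the first enzyme of heme synthesis in red cells, and Kit (1.23), a progenitor receptor. All 3 genes were past the filter in each array. Klf1 had levels of 8.82, 10.91, 12.23, 8.74 and 8.68, and both day 4 arrays stood above the other 3. Gata1 and Gfi1b, factors of the same lineage, lay at 0.54 and 0.75, whereas the earlier blood factors Tal1, Lmo2 and Runx1 lay at -0.07, -0.17 and -0.13. The blood marker genes Tal1, Gata1 and Klf1 summed to 25586 in control and 28746 in knockdown cells.

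Hox genes were higher in the knockdown array. Of 39 genes of the 4 clusters, 38 were measured and 25 kept. Of these 25, 14 were at least 2-fold higher and 0 at least 2-fold lower, beside background shares of 0.804% and 1.47%, and 23 lay above 0. Of these 14, 7 were past the filter in each array and 7 only in the knockdown array, so the count was partly fixed by the filter and nothing is read from it against the background. The other two, Hoxa2 (-0.12) and Hoxb1 (-0.17), sit near the start of their clusters, and their sign turned on the values as deposited. The medians over all measured genes were 0.42 for HoxA (10 genes), 0.91 for HoxB (10), 1.01 for HoxC (9) and 0.92 for HoxD (9). With a floor of 200 the HoxA and HoxD medians were 0.020 and 0.54, and on the values as deposited 0.82 and 1.16. A gene kept only through a bright knockdown array had to be higher, so these medians are over measured genes, kept or not.

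The size of the difference varied with position in the cluster. In paralog groups 1 to 5, 3 of 11 kept genes were at least 2-fold higher, beside 0.804% of all kept genes. The median over the 14 measured was 0.60. In groups 6 to 10, all 15 measured genes lay above 0 with a median of 1.49. There 11 of 13 kept genes were 2-fold higher, but 7 of the 11 were kept only through the knockdown array. In groups 11 to 13, 0 of 1 kept gene was, the median over the 9 measured was 0.03, and 4 of the 9 were at the floor in both arrays. Differences of genes near the floor are compressed.

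In HoxB, Hoxb8 had levels of 6.64, 7.91, 10.52, 9.14 and 8.72, with a difference of 2.61, and Hoxb6 had 7.97, 10.43, 12.69, 10.12 and 9.41, with 2.26. For both genes the day 4 knockdown array was the highest of the 5. Hoxb7 and Hoxb4 gave 1.76 and 1.25, and Hoxb5, Hoxb9, Hoxb3 and Hoxb2 0.92, 0.90, 0.68 and 0.51. In HoxC 5 genes were kept, 4 of them only through the knockdown array, and all 5 were 2-fold higher, led by Hoxc9 (8.64, 7.17, 9.68, 8.42 and 10.69) and Hoxc10 (9.30, 7.44, 9.33, 8.50 and 9.60), whose differences were 2.51 and 1.89. Hoxc6, Hoxc8 and Hoxc4 gave 1.49, 1.44 and 1.01, and the second probe of Hoxc8 gave 0.90. Hoxc6 (11.10, 8.29, 9.78, 9.80 and 11.06) and Hoxc8 (10.38, 8.36, 9.80, 9.35 and 10.79) were higher in ESCs than in the day 4 knockdown array, and for Hoxc6, Hoxc8, Hoxc9 and Hoxc10 the day 4 control array was the lowest of the 5.

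In HoxD, Hoxd9 had 8.78, 11.49, 13.69, 9.49 and 11.89 and a difference of 2.20, and Hoxd8 and Hoxd4 gave 1.38 and 1.34. Hoxd1, Hoxd10, Hoxd13 and Hoxd3 gave 0.92, 0.54, 0.40 and 0.01. In HoxA, Hoxa7 had 9.33, 8.73, 10.55, 7.99 and 11.37 with 1.81, Hoxa10 had 7.68, 7.85, 9.24, 8.003 and 12.25 with 1.39, and Hoxa5 gave 0.16. These 2 largest HoxA differences were larger still at day 10. Hoxa11 and Hoxd11 differed by 1.35 and 1.02 but did not pass the filter. Hoxa3, Hoxa4, Hoxa6, Hoxa9, Hoxa13, Hoxb13, Hoxc5, Hoxc11, Hoxc12, Hoxc13 and Hoxd12 did not pass it either, with differences from 0.00 to 0.87.

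**Figure D3:**
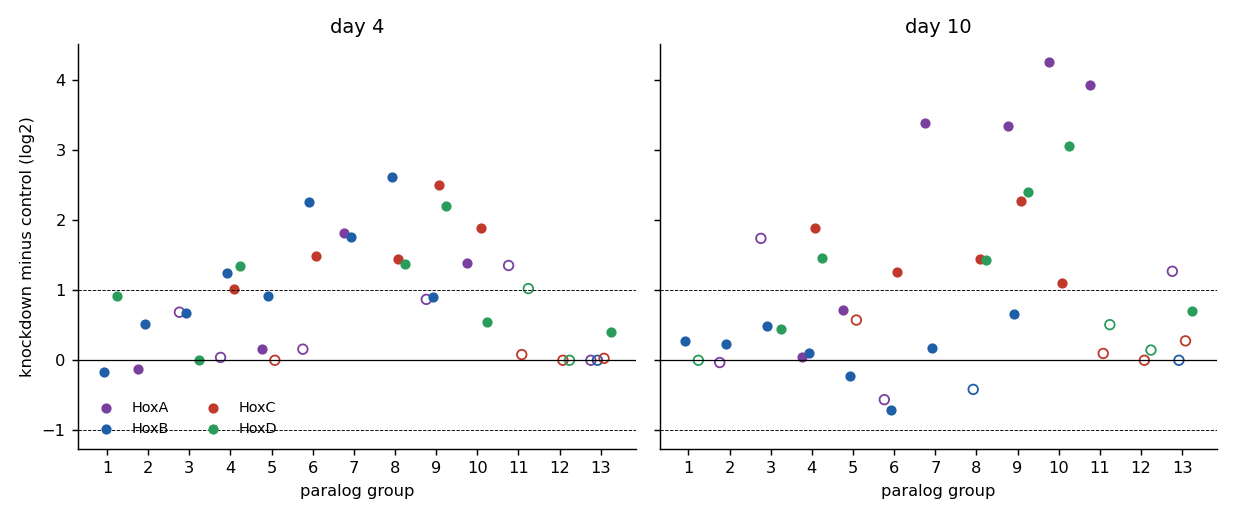
Knockdown minus control (log2, y axis) for 38 Hox genes by paralog group, from 1 at the start of a cluster to 13 at its end (x axis), at day 4 (left) and day 10 (right). Colours give the cluster, filled circles are genes past the intensity filter of that day, open circles genes below it, and dashed lines mark 2-fold. At day 4, 11 of the 14 genes above the upper line that passed the filter lie in groups 6 to 10.

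Upstream sequence is printed for the HoxB and HoxD genes with the largest differences. The 250 bases before Hoxb8, at chr11:96281655-96281904 on the plus strand, held 3 matches to the Cdx motif TTTATNG, at 199, 120 and 110 bases before the start, of which those at 199 and 110 overlap a match to TATAAA. The 250 bases before Hoxd9, at chr2:74697513-74697762 on the plus strand, held 1 match to the T-box motif AGGTGTGA, 147 bases before the start. Of the 22 Hox genes with a promoter window, 2 (9.09%) held TTTATNG (Hoxb8 and Hoxd4) and 1 (4.55%) held AGGTGTGA. Over all promoter windows the shares were 11.3% and 1.27%, and among kept genes with a window 6.95% and 0.858%. The Hox share for TTTATNG thus lay between that of kept genes and that of all windows.
Hoxb8: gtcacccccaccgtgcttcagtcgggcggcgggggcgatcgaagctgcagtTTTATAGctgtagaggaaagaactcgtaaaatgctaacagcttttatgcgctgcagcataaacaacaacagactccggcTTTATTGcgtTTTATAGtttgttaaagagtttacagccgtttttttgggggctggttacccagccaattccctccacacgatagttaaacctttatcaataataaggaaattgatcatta
Hoxd9: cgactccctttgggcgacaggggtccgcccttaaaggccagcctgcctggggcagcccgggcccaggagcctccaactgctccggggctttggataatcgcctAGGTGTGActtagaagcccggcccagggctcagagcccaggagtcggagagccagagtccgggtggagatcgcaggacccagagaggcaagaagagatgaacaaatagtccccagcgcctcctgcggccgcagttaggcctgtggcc

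Cdx genes, homeobox regulators of the posterior body that act on Hox genes, were higher as well. Cdx2 had 8.16, 12.96, 14.67, 11.38 and 10.83, the day 4 knockdown array standing highest, and a difference of 1.71. Cdx4 had 6.64, 8.26, 10.28, 6.64 and 6.64, at the floor outside day 4, and 2.01, and Cdx1 gave 0.59. The Hox cofactors were not higher: Pbx2, Pbx3, Pbx4, Meis1 and Meis3 lay at -0.47, -0.47, -0.17, -0.31 and -0.19. Polycomb genes, whose products hold Hox clusters silent, had 0 of 20 members 2-fold apart and a median of 0.02. That count is near the shares of all kept genes, 0.804% higher and 1.47% lower. The posterior growth zone list as a whole had 2 of 13 kept genes higher, Cdx2 and Cdx4, and 1 lower, Fst, beside the same shares. Cdx4 was kept only through the knockdown array.

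A few single genes of the hindlimb and allantois were also higher. Tbx4, a T-box factor of hindlimb and allantois, had 8.61, 8.68, 12.45, 9.74 and 12.07 and a difference of 3.76. This was the largest difference above 0 past the filter among genes that are not gene models or clones. Pitx1, a homeobox factor of the hindlimb, had 6.64, 7.87, 10.91, 11.76 and 12.88 and 3.04. On each day the knockdown array stood above the control array in both genes. Lhx2, a LIM homeobox factor of the limb bud, gave 1.40. Of 21 kept genes in the limb and lateral plate list 3 were higher and 0 lower, beside 0.804% and 1.47% of all kept genes. Of the 3, 2 were kept only through the knockdown array, and the median was 0.02 over 26. Tbx5, Hand2, Fgf10 and Tbx3, used in forelimb or heart, lay at -0.32, -0.61, -0.56 and -0.52. Of 17 kept genes of the allantois and extraembryonic mesoderm list, 6 were higher and 0 lower (background 0.804% and 1.47%), with a median of 0.28 over 20. Only 1 of the 6, Cdx2, was past the filter in both arrays, and the other 5 were kept only through the knockdown array. Of these 6, Tbx4, Pitx1, Cdx2, Cdx4 and Hoxa10 also belong to lists above, and the sixth, the integrin subunit Itga4, had 7.37, 7.44, 9.63, 13.23 and 12.85 and 2.18. Osr1, a factor of lateral and intermediate mesoderm, gave 1.70 and 1.38 on its probes and did not pass the filter.

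Stem cell genes were mostly a little lower. Of 15 kept pluripotency genes 2 were at least 2-fold lower and 0 higher, beside 1.47% and 0.804% of all kept genes. They were Tdgf1 and the transcription factor Tfcp2l1 (-1.15), the latter kept only through the control array. The median of the list was -0.35 over 23. Sox2 had 17.26, 11.35, 10.58, 8.88 and 9.09 and -0.77, and Klf4 and Pou5f1 (Oct4) gave 0.04 and -0.02. In the primed epiblast list, Fgf5 and Otx2 were 2-fold lower of 12 kept, beside 1.47% of all kept genes. Both were kept only through the control array, so they had to be lower. The median was -0.05 over 16 and 0.07 on the values as deposited, and Dnmt3b, a DNA methyltransferase, gave -0.46. Among 13 kept neural genes, Lhx2 was higher and Stmn2, a tubulin-binding protein, lower (-1.18), beside 0.804% and 1.47% of all kept genes.

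Epithelial genes were lower in part. Of 21 kept, 4 were at least 2-fold lower and 0 higher, beside 1.47% and 0.804% of all kept genes, with a median of -0.30 over 29. Of the 4, 2 were kept only through the control array. Ovol1, a zinc finger repressor of epithelia, had 8.74, 11.68, 8.56, 8.15 and 7.91 and a difference of -3.13. The claudins Cldn6 and Cldn7 gave -1.77 and -1.09, the polarity protein Crb3 -1.24 and the adhesion protein Cdh1 (E-cadherin) -0.88. Of 16 genes of mesenchyme and the epithelial-mesenchymal transition, all kept, Twist2 was higher (1.37) and Zeb2, a repressor of Cdh1, was lower. These counts stand beside 0.804% and 1.47% of all kept genes, and Zeb2 was kept only through the control array. Zeb2 had 7.01, 11.04, 6.64, 11.43 and 11.83, with the knockdown array at the floor, so its difference of -4.40 is a bound that moves with the floor (at least 21.1-fold lower). Snai2 gave 0.86 and Snai1 -0.03.

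**Figure D4:**
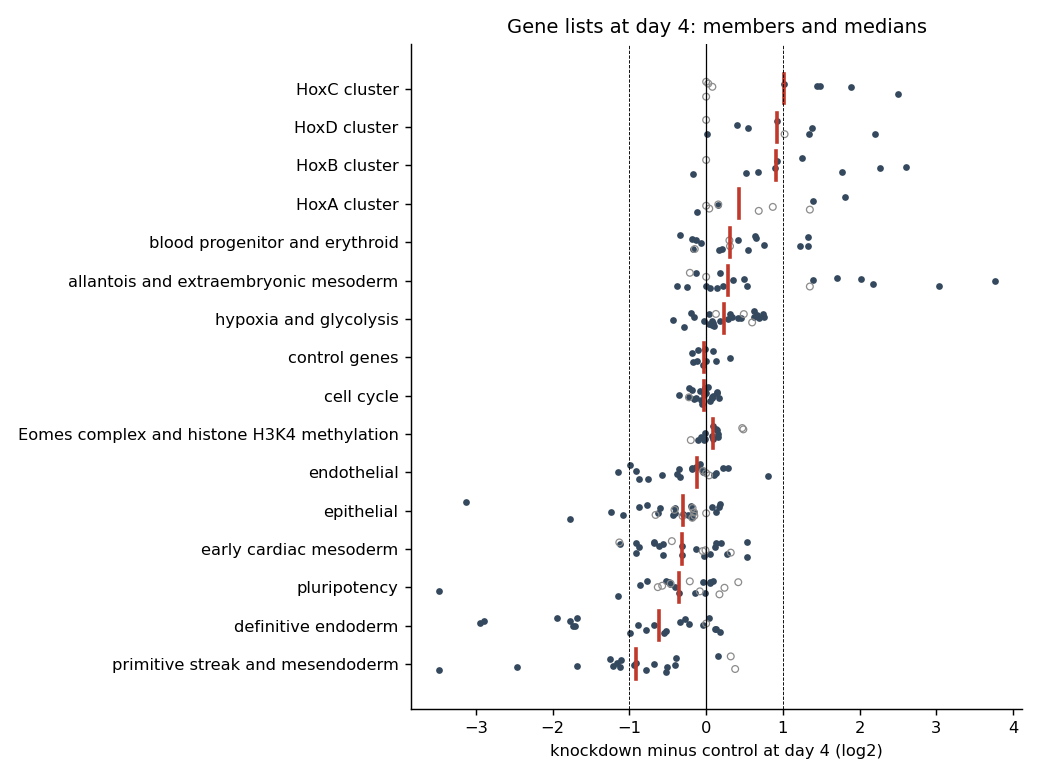
Knockdown minus control at day 4 (log2, x axis) for the measured members of 16 gene lists (rows); filled points passed the intensity filter, open points did not, red bars are medians over all measured members, and dashed lines mark 2-fold. At the floor of 100 used here the 4 Hox clusters lie furthest to the right, with medians from 0.42 to 1.01 (HoxA falls to 0.020, under allantois at 0.28 and blood at 0.19, with a floor of 200), and primitive streak and definitive endoderm furthest to the left, with -0.92 and -0.62.

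Among imprinted genes the direction was mixed. Of 18 kept, Dlk1 was higher and H19 and Nnat were lower, beside 0.804% and 1.47% of all kept genes. Nnat was kept only through the control array, so it had to be lower. The median was 0.16 over 21. H19, a non-coding RNA beside Igf2, had 12.30, 13.002, 10.84, 15.58 and 11.03 and -2.16, and Igf2 itself 17.78 and 18.17. Nnat, which encodes neuronatin, had 7.66, 9.16, 7.63, 13.83 and 9.26 and -1.53 on its brighter probe, and its other probe was at the floor in both day 4 arrays. Peg10 and Sgce, neighbours in 1 domain, gave 0.85 and 0.85. Genes of hypoxia and glycolysis had 0 of 23 kept members 2-fold apart and a median of 0.23, with 18 above 0, led by Aldoc (0.76), Bnip3 (0.74) and the glucose transporter Slc2a3 (0.68). Cell cycle genes (0 of 21 kept) and control genes (0 of 10) had medians of -0.02 each, which lie above 0 on the values as deposited. Immediate early genes had 0 of 18 kept members 2-fold apart and a median of -0.30. The counts of 0 in these lists are near the shares of all kept genes.

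The other genes among the highest 20 were of mixed kinds. Rprm, a p53-linked cell cycle gene, had 10.62, 12.12, 13.99, 14.54 and 15.91 and 1.87. Cdk5r1, an activator of the kinase Cdk5, gave 2.29, Gfra1, a GDNF receptor, 1.95, and Colec11, a secreted lectin, 1.78. Dhrs3, a retinaldehyde reductase, had 11.15, 7.91, 9.68, 11.97 and 13.87 and 1.76. Fyb2 and Taar3 gave 2.61 and 1.82. Gtf2ird1 gave 2.19 on the brightest of its probes, where the day 4 control array was the low one of the 5, and 0.42 and -0.12 on its other probes.

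The other genes among the lowest included some in which only the day 4 knockdown array was low. Cep57l1, a centrosome protein, had 13.57, 12.56, 7.85, 13.40 and 13.16 and -4.72. Mmp17, a membrane-bound metalloproteinase, had 12.76, 10.99, 7.04, 10.46 and 10.42 and -3.96, and in both genes the 4 other arrays lay above 10. Atp2b3, a calcium pump, had 6.64, 10.42, 6.64, 6.64 and 6.64, so that only the day 4 control array was above the floor. Pdlim3, a muscle cytoskeleton protein, had 9.76, 15.00, 12.69, 14.91 and 13.50 and -2.31, lower in the knockdown at both days. Fam20c, a secretory pathway kinase, Calcr, the calcitonin receptor, and Fezf2, a forebrain factor, gave -2.58, -1.96 and -1.95. Clec4e (-2.53) and Il4ra (-2.04), genes of immune cells, and Htr3b (-2.63), Shroom4 (-2.39), Hhipl1 (-2.31) and Srpx (-1.98) completed the lowest 20 with the genes named above. The largest difference of all was that of the clone 1520401A03Rik, singled out after its value was seen, with 8.27, 8.16, 17.26, 6.64 and 8.40 and 9.10.

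Most of these differences rest on a single probe. Of the 243 genes 2-fold apart, 215 had 1 probe and 28 had several, and in 6 of the 28 the probes differed in sign. Where both leading probes passed the filter, 9 genes were 2-fold apart on the brighter one, 8 of them had the same sign on the other and 5 were 2-fold apart on it too. Every probe was 2-fold the same way in 8 genes. Tmem158, a membrane protein induced by Ras, gave 1.42 and 1.14, Flrt1 1.48 and 1.26, and Skap1, an adaptor of T cells, 1.24 and 1.24. Flrt3, a membrane protein that acts in FGF signalling, gave -1.29 and -1.06, Tnfrsf12a (the TWEAK receptor) -1.23 and -1.07, and Upp1 (uridine phosphorylase) -1.15 and -1.09. The other two, Osr1 and Samd3, did not pass the filter.

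Genes were also grouped by their course between ESCs and control cells at day 10, arrays outside the day 4 pair. Of 190 kept genes at least 8-fold higher in ESCs than in control cells at day 10, 1 was at least 2-fold higher and 11 (5.79%) lower in the day 4 knockdown array, with a median of -0.17. Of 342 kept genes at least 8-fold higher in control cells at day 10, 18 (5.26%) were higher and 22 (6.43%) lower, with a median of 0.04. Of 6395 kept genes within 2-fold between those arrays, 26 (0.407%) were higher and 58 (0.907%) lower. The shares of 2-fold lower genes were larger in both strong courses than among the flat genes, while for higher genes the share in the ESC course (0.526%, 1 gene) was close to that of the flat genes.

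At day 10, the knockdown array was above control by 2-fold or more in 272 of 10888 kept genes (2.5%) and below it in 393 (3.61%), in a pair that shares no array with the day 4 pair. Of the day 4 genes, 21 were higher on both days, 24.4% of the 86 and 7.72% of the 272, and 23 were lower on both days, 14.6% of the 157 and 5.85% of the 393. The higher genes of both days held 10 Hox genes (Hoxa7, Hoxa10, Hoxc4, Hoxc6, Hoxc8, Hoxc9, Hoxc10, Hoxd4, Hoxd8 and Hoxd9) together with Tbx4, Pitx1, Lhx2, Rprm and Dhrs3. Hoxa10 went from a difference of 1.39 at day 4 to 4.25 at day 10, Hoxd9 from 2.20 to 2.40, and Tbx4 from 3.76 to 2.33. No HoxB gene was among them: Hoxb8 was at -0.42 and Hoxb6 at -0.71 at day 10. The lower genes of both days held H19, Nnat, Tdgf1, Ttr, Spink1, Cldn6, Cldn7, Bmp5, Tfcp2l1 and Pdlim3. Spink1 went from -1.74 to -5.17, H19 from -2.16 to -4.54 and Tdgf1 from -3.48 to -1.40. Of the 86 higher genes, 62 had the same sign at day 10, with a median of 0.31, and of the 157 lower genes 82 did, with a median of -0.02.

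**Figure D5:**
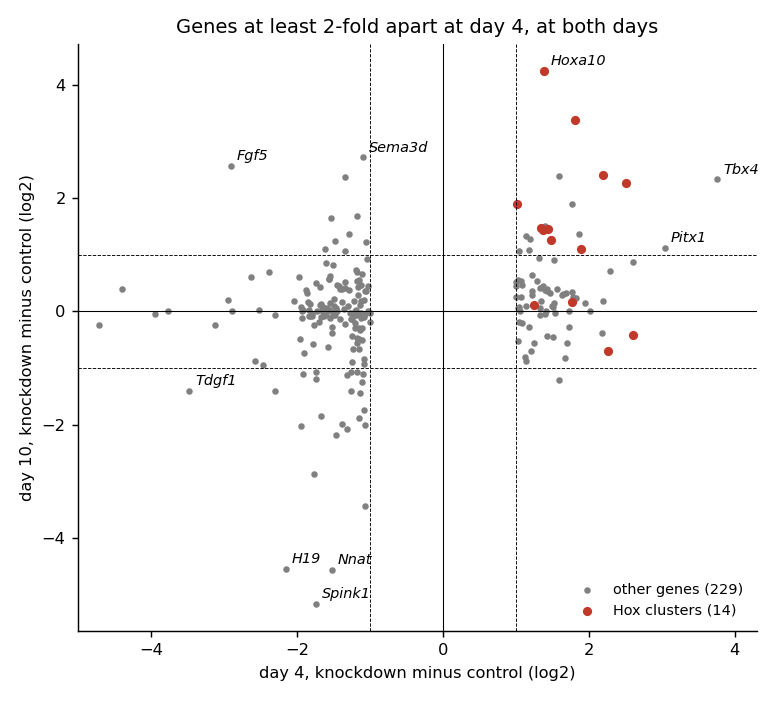
Knockdown minus control (log2) at day 4 (x axis) and day 10 (y axis) for the 243 genes at least 2-fold apart at day 4; red points are the 14 Hox genes, grey points all other genes, and dashed lines mark 2-fold. The upper right holds 21 genes beyond 2-fold on both days and the lower left 23, while 10 lie at the upper left and 1 at the lower right.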

How the data were processed

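RNA of 5 samples was hybridised to single-colour arrays, 1 array a sample. Per the labels and the submitters' processing notes, the values deposited by the authors are probe intensity values from Agilent Feature Extraction 10.7.1.1, and the sources used here give no scaling before deposit. The 5 columns were quantile normalised, set to a floor of 100 and taken to log2. Each gene was read from its brightest probe by the mean log2 intensity over the 5 arrays, and probes were named through the platform annotation and the RefSeq gene table (GRCm38.p6). No other columns of values were present (0). Differences were knockdown minus control. With 1 array a side no test was run, and a 2-fold threshold served as a description.

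Genes named in the text were, among kept genes measured above the floor on each side and not counting gene models or clones, the 20 with the largest differences in each direction, the 5 largest bounds in each direction, genes whose probes were all 2-fold apart the same way, for each list at most 6 members on the side of the median and 3 on the opposite side, all Hox, T-box and Nodal genes, a set of mesoderm factors, and the neighbours of Eomes. Other names (among them 1520401A03Rik, Tmc5, Prex1, Col3a1, Lum, Gata1, Tal1, Runx1, Hhex, Id1, Id3, Igf2, Pbx4, Pou5f1, Snai1, the genes shared with day 10 and the odorant receptor genes) were chosen after their values were seen. The members and gene lists were chosen with earlier results of these data known. Lists were described by counts and medians. Alternatives in scaling, floor, filter, threshold and choice of probes were tried. Promoter windows ran from 250 bases before to 50 after the RefSeq start, and chromosome 18 was not used. Scripts were tested on simulated data and used Python 3.11.15 with numpy 2.4.6, pandas 2.3.3, scipy 1.17.1, statsmodels 0.14.6 and matplotlib 3.10.9.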

Additional observations from a re-analysis of the deposited data

Results flagged for a closer look

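In 11 genes the difference was at least 2-fold in opposite directions on the 2 days. The difference between the days was not tested, since each day had 1 array a side. Fgf5 had -2.91 at day 4 and 2.56 at day 10. Sema3d, a secreted guidance protein, had -1.10 and 2.72, and Gfra3, a receptor for GDNF family ligands, -1.34 and 2.36. Stmn2 had -1.18 and 1.68, and Pcdh19, a protocadherin, -1.53 and 1.64. Flrt3 had -1.29 and 1.36, Ptn (the growth factor pleiotrophin) -1.48 and 1.25, and Sowahd -1.06 and 1.22. Wnt2b had -1.62 and 1.099, and Cthrc1, a secreted collagen-related protein, -1.34 and 1.06. Pgam2, the muscle phosphoglycerate mutase, went the other way, with 1.59 at day 4 and -1.22 at day 10.

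Probes with no single gene name also held differences at day 4. The filter kept 1751 such probes, of which 17 were 2-fold or more higher and 32 lower in the knockdown array, with differences from -2.43 to 1.57.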

How the results depend on the processing

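The count of 86 higher genes became 24 with the brighter array at or above its 75th percentile, 12 at 4-fold and 279 at 1.5-fold, and the 157 lower genes became 33, 18 and 400 at those settings and 239 with no filter. The filter settings test fewer or more genes, and the fold settings move the threshold over the same 10699 genes. The HoxA median of 0.42 was 0.82 on the values as deposited, 0.020 with a floor of 200 and 0.78 over kept genes. The HoxC median was 1.49 over kept genes, and the HoxD median was 1.16 as deposited and 0.54 with a floor of 200. As deposited, the medians were 0.52 for allantois, -0.10 for early cardiac mesoderm and 0.58 for blood genes. The values as deposited add the shift of 0.20 between the arrays. Of 357 alternative list medians, 333 moved less than the spread used and 24 moved more. Of 2592 alternative gene values, 2406 and 186 did, and 0 called values changed sign. No paired analysis was possible because each group held 1 array. Dim genes are limited by the floor, and 1 array a group limits the precision of every value.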

Other observations

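In 83 of 157 lower genes the day 4 knockdown array was the lowest of the 5, and in 30 of 86 higher genes it was the highest. Over all 10699 kept genes these counts were 1123 and 2232. The 2-fold limit already places the knockdown array below or above the control array in the called genes. The counts are therefore not comparable, and nothing is read from them. The other 4 arrays lay within 2-fold of each other in 21 of the lower genes (13.4%), in 5 of the higher genes (5.81%) and in 40.2% of all kept genes. The median level in the day 4 control array was 10.4 for the lower, 9.22 for the higher and 12.1 for all kept genes. The filter and the 2-fold limit shape these levels too.

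Of 75 kept odorant receptor genes, a family used in the nose and picked after its values were seen, 3 were lower and 0 higher. Of all kept genes 1.47% were lower and 0.804% higher. Olfr1388 and Olfr683 were kept only through the control array, so they had to be lower. Olfr1388 had levels of 9.60, 9.63, 7.80, 8.68 and 8.59, Olfr1044 11.25, 11.29, 9.61, 9.97 and 10.09 and Olfr683 8.73, 9.30, 7.79, 7.89 and 7.82, in the order used above, with differences of -1.83, -1.68 and -1.51.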
